A study of Mus musculus with 14 samples.

Results

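The 10 genes described here are members of the Notch pathway: the receptors Notch1, Notch2 and Notch3, the ligands Dll1, Dll3, Jag1 and Jag2, and the target genes Hes1, Hes5 and Hey1. They were chosen by name, and all 10 were found among the 41381 Ensembl genes of the deposited table. Their transcript levels were measured by RNA sequencing of granule neuron progenitors (GNPs), which divide in the outer layer of the young cerebellum and give rise to granule neurons. The cells were isolated at postnatal day 7 on a percoll density gradient. There were 5 libraries labelled WT. The study writes the genotype of its wild-type GNPs as Chd7 f/f (floxed alleles), with no Cre named. The labels give the first 3 of the WT libraries as wild type for Chd7 and the other 2 as negative for Atoh1-Cre. The libraries labelled Het (n = 5) carried Atoh1-Cre::Chd7 f/+ and those labelled Hom (n = 4) carried Atoh1-Cre::Chd7 f/f. Chd7 encodes a chromatin remodeller. Atoh1-Cre acts in the granule cell lineage, so glia and vessels are not its target, and the study names weaker recombination as the probable reason for Chd7 protein remaining in the posterior lobe. The labels give the strain as C57BL/6 or C56Bl6/J, and the sources used here do not say whether a library was 1 animal or a pool, so p-values measure the spread between libraries. Sequencing was done in 2 batches: the first (batch 1, 8 libraries) comprised WT 1 to 3, Het 1 to 3 plus Hom 1 and 2, and the remaining 6 libraries formed batch 2.

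Notch receptors are membrane proteins that bind Delta-like and Jagged ligands on a neighbouring cell. Binding leads to cleavage by ADAM proteases and gamma-secretase, and the released intracellular domain joins the DNA-binding protein RBPJ and a Mastermind coactivator at target genes such as the Hes and Hey repressors. In the cerebellum the pathway is known from GNPs, where Notch2 is a receptor of the dividing cells, from Bergmann glia and other astroglia, where Hes genes are targets, and from vessels, where Notch1, Notch3, Jag1 and Jag2 act in endothelial or mural cells. A bulk library mixes all of these, and fewer cells of a type cannot be told apart from less RNA per cell.

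The promoters of the members were searched for the RBPJ core TGGGAA on both strands, because RBPJ is the factor through which Notch acts on its targets. RefSeq promoter windows of 300 bases (250 before and 50 after the start of transcription, GRCm38.p6) matched 8 of the 10 members by symbol, with 9 windows in all. Hes1 and Hey1 had no entry. Only the Hes5 window held the core, with 1 match on each strand, starting at -226 and -82 from the transcription start. Of all 32851 promoter windows, 25.6% held it. The Hes5 window is shown because it is the member with the motif, and the Jag2 window because Jag2 varied most among the members; capitals mark the RBPJ core on either strand.
Hes5, chr4:154960673-154960972, plus strand: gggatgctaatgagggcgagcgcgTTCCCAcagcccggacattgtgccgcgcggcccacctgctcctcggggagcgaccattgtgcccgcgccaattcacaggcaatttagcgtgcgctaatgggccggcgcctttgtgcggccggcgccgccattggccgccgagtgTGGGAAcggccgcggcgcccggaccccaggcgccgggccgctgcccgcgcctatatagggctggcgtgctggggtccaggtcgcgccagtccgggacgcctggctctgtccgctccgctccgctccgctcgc
Jag2, chr12:112929446-112929745, minus strand: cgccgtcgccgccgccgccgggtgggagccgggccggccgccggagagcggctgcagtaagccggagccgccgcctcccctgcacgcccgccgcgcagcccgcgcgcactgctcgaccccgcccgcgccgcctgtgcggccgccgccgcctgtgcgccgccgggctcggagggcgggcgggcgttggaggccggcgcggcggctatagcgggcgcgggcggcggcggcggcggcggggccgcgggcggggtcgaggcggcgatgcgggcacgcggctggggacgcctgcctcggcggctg

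Transcript levels are given as TPM, a share of all transcripts of a library that is corrected for transcript length, so that genes can be compared with each other. The targeted gene and the markers of other cells were examined because the members are used by several cell types. Chd7 was at 121, 152, 132, 203 and 272 TPM in the numbered WT libraries, at 166, 181, 150, 149 and 137 TPM in the Het libraries and at 172, 185, 150 and 126 TPM in the Hom libraries. In batch 1 the Hom libraries thus lay above the WT libraries, against their labels, and in batch 2 below them. TPM of a whole gene does not check a deletion of single exons, and the genotypes below are to be read as those of the labels. By quantitative RT-PCR the study found less Chd7 transcript in both Het and Hom GNPs. With a Chd7 antibody it reported ablation of the protein in granule cells of homozygous mutants. Here and below, genes are called at a limma adjusted p under 0.05 over the 17325 genes tested, from a model of log2(TPM + 1) that holds the genotype and the batch. Chd7 was not called in Hom against WT (log2 change -0.11, SE 0.20, limma adjusted p 0.862). Atoh1, which defines GNPs, was at 20.8 to 50.6 TPM and Neurod1, a factor of differentiating granule neurons, at 501 to 1032 TPM. In Hom against WT, 2.68% of all genes tested were called and 14.9% had a limma unadjusted p under 0.05. The median log2 change over all genes was 0.024. Of the 10 GNP markers, 7 had a change above 0 in this contrast and 1 was called higher (Ccnd1, 0.80, limma adjusted p 1.11e-04). Of the 9 granule neuron markers, 8 had a change below 0, 3 were called lower (Neurod1, Tubb3 and Slc17a7, -0.38 to -0.71) and 1 higher (Grin2c, 1.51, limma adjusted p 0.00465). All 5 Purkinje markers tested had a change below 0 (median -1.13), and 1 was called (Pcp4, -1.73, limma adjusted p 0.00914). These called genes were named after their values were seen. Of the 18 astroglia markers, 15 had a change below 0 in Hom (median -0.39) and 0 were called (7 at an unadjusted p under 0.05). Their summed level was 744 to 2695 TPM in WT, 1062 to 1689 in Het and 658 to 1304 in Hom. Fabp7, a fatty acid binding protein of radial and Bergmann glia, was at 670 to 979 TPM in WT 1 to 3, at 593 in Het 3 and at 144 to 346 in the other 10 libraries. Gdf10, a marker of Bergmann glia, was at 23.6 to 107 TPM. The 12 oligodendroglia markers had 8 changes above 0 in Hom (median 0.19), with 0 called and 2 at an unadjusted p under 0.05. Their summed level was 961 to 1725 TPM in WT, 794 to 1961.5 in Het and 735 to 1844 in Hom. Among the 7 microglia markers 5 had a change above 0 and 0 were called. Among the 6 interneuron markers 5 had a change above 0 and 1 was called lower (limma adjusted p 0.0408). For endothelium, 11 of the 12 markers had a change above 0 in Hom (median 1.47) and 0 were called (9 at an unadjusted p under 0.05). Their summed level was 50.2 to 318 TPM in WT, 35.4 to 683 in Het and 168 to 510 in Hom, and that of the mural markers 47.9 to 169, 44.7 to 209 and 69.4 to 166 TPM. WT 1 to 3 and Het 3 stood apart from the other 10 libraries. Their endothelium markers summed to 35.4 to 67.4 TPM against 168 to 683 in the others, with Cldn5, a tight junction protein of brain endothelium, at 5.39 to 14.03 TPM against 50.4 to 229, and their Purkinje markers summed to 83.0 to 182 TPM against 27.1 to 51.0. The defining markers of astroglia (Gfap, Aqp4), oligodendroglia (Sox10), endothelium (Cldn5, Pecam1) and mural cells (Rgs5, Pdgfrb) were all above 0 in every library.

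Hey1, a basic helix-loop-helix repressor, stood above all other members, with a level of 96.6 ± 18.3 TPM (SD, n = 5) in the libraries labelled WT. This was 7.41 times the mean of the next member, and the WT ranges of these 2 genes did not overlap. Hey1 lay at the percentile 88.2 of the tested genes by mean WT TPM, and the other 9 members lay between the percentiles 26.6 and 44.5. Dll3, Notch2 and Notch1 followed, with WT means of 13.0 ± 3.33, 12.5 ± 1.33 and 11.95 ± 3.80 TPM. Below them came Dll1 (8.09 ± 2.29), Hes1 (7.77 ± 2.43) and Hes5 (6.81 ± 2.51). Jag1 (5.51 ± 1.27), Notch3 (5.26 ± 2.06) and Jag2 (4.19 ± 2.43) were lowest. Each neighbouring pair in this order below Hey1 had overlapping WT ranges. Members further apart in the order could still be separated: the lowest WT level of Notch2 (11.25 TPM) was above the highest of Hes1 (11.22), Hes5 (10.1), Jag1 (7.24), Notch3 (8.50) and Jag2 (8.12), and the lowest of Dll3 (9.44) was above the highest of Jag1, Notch3 and Jag2.

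**Figure D1:**
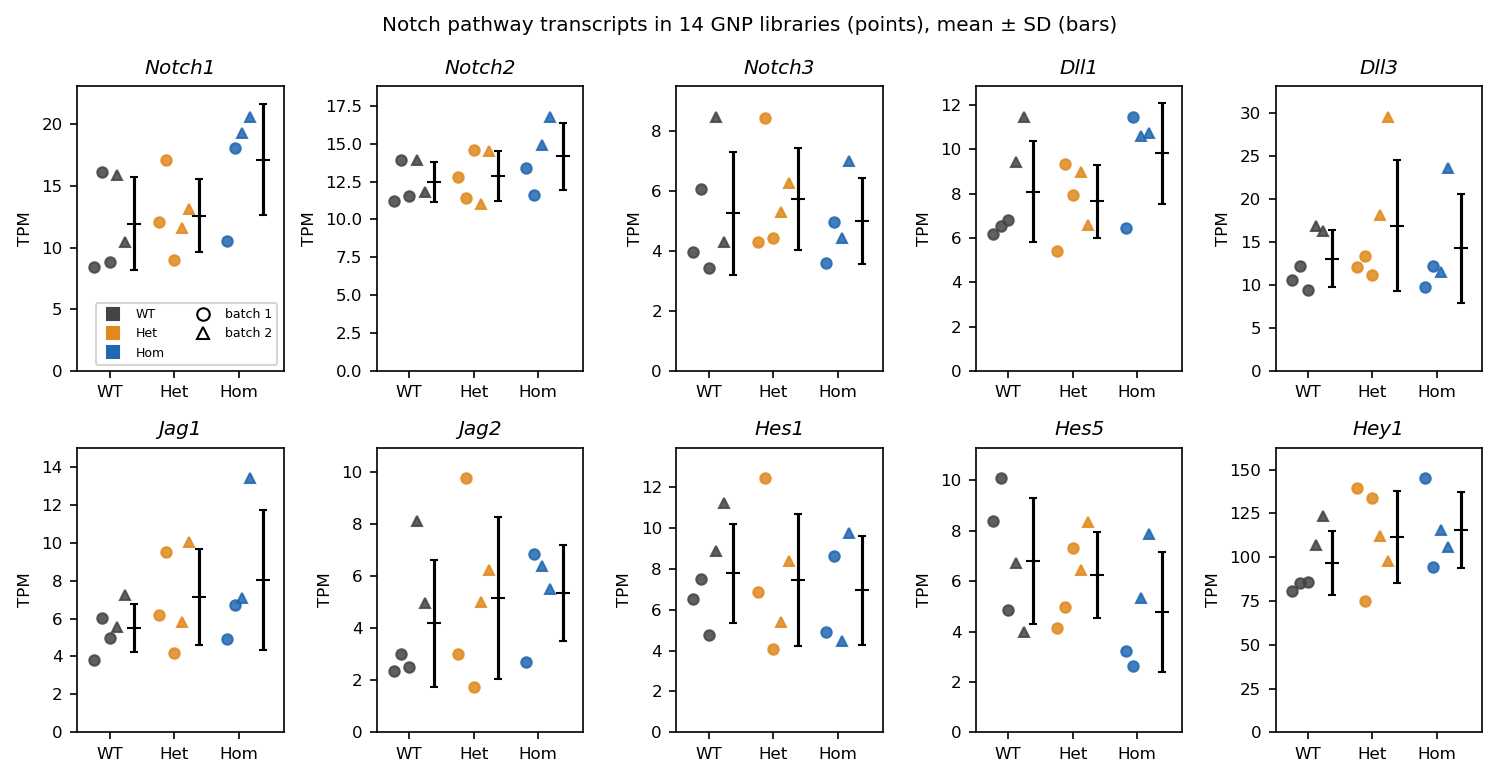
TPM of each of the 10 members (y axis from 0) in the 14 libraries, by genotype label. Circles are batch 1 and triangles batch 2, bars are the mean ± SD of each group, and the WT, Het and Hom points overlap for every member.

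None of the 10 members passed the test in any of the genotype comparisons. In Hom against WT, 0 of 10 members were called, beside 2.68% of all genes tested (1.41% lower and 1.27% higher), and 0 members had an unadjusted p under 0.05, beside 14.9% of all genes. In Het against WT, 0 of 10 were called (0.00577% of all genes), and 0 had an unadjusted p under 0.05 (6.08% of all genes). In Hom against Het the count was also 0 (0.427% of all genes), as it was at an unadjusted p under 0.05 (6.18%). Kruskal-Wallis tests of each gene, exact over rearrangements of the libraries within batch, gave p-values from 0.197 for Notch1 to 0.852 for Hes1, and 0 members under 0.05, beside 10.3% of all genes. For no member were all libraries of 1 genotype above all those of another, while 4.87% of all genes had ranges that did not overlap between Hom and WT, 1.04% between Het and WT and 2.16% between Hom and Het. The median change of the members was 0.19 on the log2 scale in Hom and 0.11 in Het, against medians of 0.024 and 0.0074 over all genes tested. In both contrasts 7 of the 10 had a change above 0, of which Dll3 in Hom, at 0.0036, lay below 0 under median-ratio and quantile scaling. The contrasts share the WT libraries, so the directions are not independent.

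**Figure D2:**
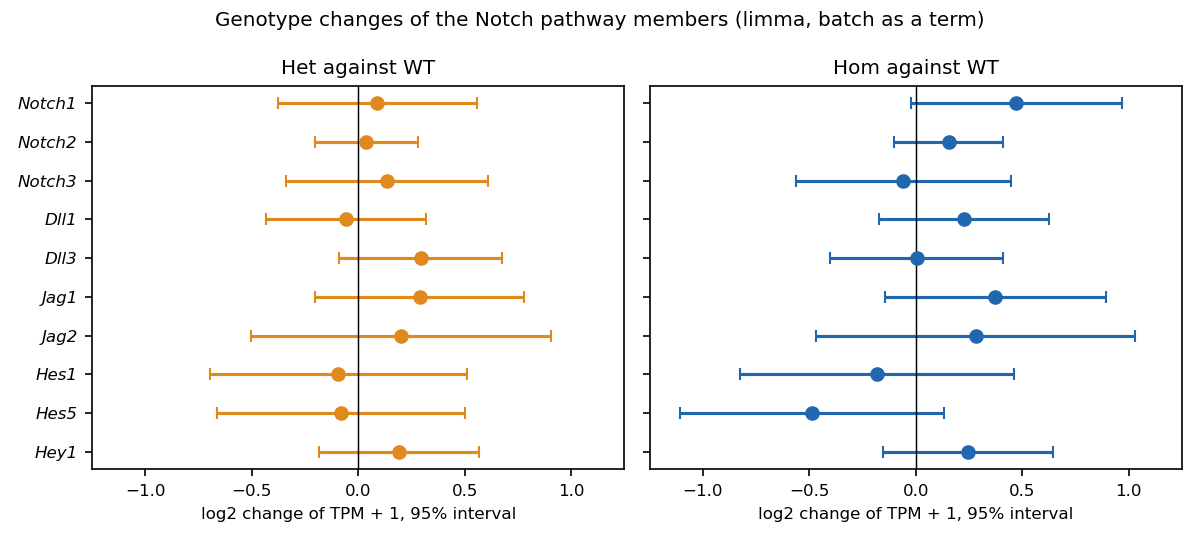
log2 change of TPM + 1 (x axis) of each member in Het against WT (left) and Hom against WT (right), with 95% intervals from limma. Every interval includes 0, and that of Notch1 in Hom reaches down to -0.025.

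The receptors did not pass the test in either mutant. Notch1 (GRCm38 chromosome 2, 26457903 to 26516663, minus strand) reached 8.39, 16.2, 8.84, 15.9 and 10.5 TPM in the numbered WT libraries. The Het libraries, in order, held 12.1, 17.1, 9.01, 11.6 and 13.1 TPM, and the Hom libraries 10.6, 18.1, 19.3 and 20.6 TPM. Thus 3 of the 4 Hom libraries lay above every WT library, while Hom 1 lay within the WT range. The change in Hom was 0.47 on the log2 scale (95% interval -0.025 to 0.97), the lowest unadjusted p among the members at 0.0609, with a limma adjusted p of 0.361. In batch 1 alone the change was 0.35 and in batch 2 alone 0.59 (unadjusted p 0.0330, limma adjusted p 0.277). Transcripts annotated on the opposite strand within the gene were at 0 to 2.16 TPM, and the study's counting at default settings does not use strand.

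Notch2 (chromosome 3, 98013527 to 98150361, plus strand) was the steadiest member. Its lowest level was 11.03 TPM in Het 4 and its highest 16.8 TPM in Hom 4, a ratio of 1.52. The means were 12.5 ± 1.33 in WT, 12.9 ± 1.67 in Het and 14.2 ± 2.21 TPM in Hom (SD). The Hom change was 0.15 (95% interval -0.10 to 0.41, limma adjusted p 0.607), so these libraries leave room for a rise of up to 1.33 times or a fall to 0.930 times on the scale of TPM + 1.

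Notch3 (chromosome 17, 32120820 to 32166852, minus strand), which in the brain is known from the mural cells of vessels, ranged from 3.45 to 8.50 TPM in WT, 4.32 to 8.46 in Het and 3.6 to 7.01 in Hom. The 2 highest libraries were WT 4 (8.50 TPM) and Het 2 (8.46 TPM), which belong to different genotypes and batches. The Hom change was -0.058 (95% interval -0.56 to 0.45, limma adjusted p 0.947).

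Among the ligands, Dll1 (chromosome 17, 15367354 to 15376872, minus strand), a canonical ligand of neural progenitors, lay between 6.19 and 11.5 TPM in WT, 5.42 and 9.32 in Het, and 6.47 and 11.5 in Hom. Its Hom change was 0.23 (95% interval -0.17 to 0.63, limma adjusted p 0.627).

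Dll3 (chromosome 7, 28293553 to 28302238, minus strand), a divergent ligand that does not activate receptors on other cells, had 10.6, 12.1, 9.44, 16.8 and 16.2 TPM in the numbered WT libraries. The Het libraries held 12.1, 13.4, 11.2, 18.2 and 29.6 TPM, and the Hom libraries 9.70, 12.2, 11.5 and 23.6 TPM. The spread went with the batch: the 8 batch 1 libraries lay between 9.44 and 13.4 TPM, and 5 of the 6 batch 2 libraries lay above all of them, the exception being Hom 3. Its Hom change was 0.0036 (95% interval -0.40 to 0.41) and its Het change 0.29 (95% interval -0.090 to 0.67), with limma adjusted p-values of 0.996 and 0.848.

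Jag1 (chromosome 2, 137081456 to 137116644, minus strand), a ligand with roles in glia and in vessels, had 3.80, 6.01, 4.95, 5.57 and 7.24 TPM in the numbered WT libraries. The Het libraries held 6.17, 9.52, 4.19, 5.79 and 10.1 TPM, with 4.94, 6.70, 7.09 and 13.4 TPM in the Hom libraries. The 3 highest libraries were Hom 4, Het 5 and Het 2, and the 2 lowest were WT 1 and Het 3. The Hom change was 0.37 (95% interval -0.15 to 0.89, limma adjusted p 0.515).

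Jag2 (chromosome 12, 112907819 to 112929776, minus strand) had the widest range of the members, with a highest level 5.61 times the lowest. The numbered WT libraries held 2.37, 2.99, 2.51, 8.12 and 4.97 TPM, the Het libraries 2.99, 9.76, 1.74, 5.02 and 6.24, and the Hom libraries 2.69, 6.84, 6.37 and 5.50. In batch 1 the libraries Het 2 and Hom 2 stood above the others, and the 6 libraries of batch 2 were all above the other 6 libraries of batch 1. The Hom change was 0.28 (95% interval -0.47 to 1.03, limma adjusted p 0.772). A microRNA annotated within the gene on the same strand, Mir6941, was at 0 to 13.58 TPM.

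Hes1 (chromosome 16, 30064384 to 30067796, plus strand), a repressor that holds progenitors undifferentiated, had 6.54, 7.48, 4.78, 8.85 and 11.2 TPM in the numbered WT libraries. Levels were 6.86, 12.4, 4.08, 5.41 and 8.37 TPM in the Het libraries, with 4.92, 8.64, 4.45 and 9.74 TPM in the Hom libraries. Each genotype thus spanned low and high libraries. The change was -0.18 in Hom (95% interval -0.82 to 0.46, limma adjusted p 0.842).

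Hes5 (chromosome 4, 154960923 to 154962371, plus strand), a Notch target typical of radial and Bergmann glia and of neural stem cells, had the most negative Hom change of the members. Levels were 8.40, 10.1, 4.86, 6.71 and 3.98 TPM in the numbered WT libraries. The Het libraries held 4.14, 4.97, 7.31, 6.43 and 8.33 TPM, and the Hom libraries 3.24, 2.64, 5.35 and 7.88 TPM. The 2 lowest libraries of all were Hom 1 and Hom 2, both of batch 1, while Hom 3 and Hom 4 of batch 2 lay within the WT range. The Hom change was -0.49 (95% interval -1.11 to 0.13, limma adjusted p 0.469). It was -1.11 in batch 1 alone (limma adjusted p 0.170) and 0.28 in batch 2 alone (limma adjusted p 0.661). The 2 changes differed by 1.39 as a genotype by batch term, with an unadjusted p of 0.0120 and a limma adjusted p of 0.178, so the difference did not pass the test. A transcript annotated on the opposite strand of Hes5 was at 0 to 1.58 TPM.

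Hey1 (chromosome 3, 8663359 to 8667256, minus strand) had 80.9, 85.1, 86.0, 107 and 124 TPM in the numbered WT libraries. The Het libraries held 139, 75.2, 134, 112 and 97.8 TPM, and the Hom libraries 145, 94.7, 116 and 106 TPM. WT 1 to 3 were low together, but Het 2, with the lowest level of all, belongs to the same batch. The Hom change was 0.25 (95% interval -0.15 to 0.64, limma adjusted p 0.593), with 0.48 in batch 1 alone and -0.057 in batch 2 alone.

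Whether a genotype change depended on the batch was tested by an interaction term. Of the 10 members 0 were called for Het (0.00577% of all genes) and 0 for Hom (0.0115% of all genes), and Hes5 in Hom was the only one with an unadjusted p under 0.05 in either contrast. Between the batches themselves, all 10 members had a change above 0 in batch 2. Their median log2 change was 0.26, against 0.022 over all genes tested, whose share above 0 was not computed. Only Dll3 was called, by 0.68 on the log2 scale (SE 0.15, limma adjusted p 0.0123), where 13.5% of all genes were called and 7.88% were called higher. Its mean was 11.3 ± 1.37 TPM in batch 1 (SD, n = 8) and 19.3 ± 6.37 TPM in batch 2 (SD, n = 6). Without any 1 library the batch change of Dll3 stayed between 0.57 and 0.80 and remained called. The label style of Het 3 is that of the later submissions, and with Het 3 placed in batch 2 the change was 0.54 with a limma adjusted p of 0.114. Jag2 had the next largest batch change (0.62, SE 0.28, limma adjusted p 0.160). Dll3 and Jag2 were the 2 members with an unadjusted p under 0.05 between batches (0.0441 for Jag2), beside 28.9% of all genes, and without Het 2 Jag2 was called too (0.81, limma adjusted p 0.0189). Of the 56 other pathway genes tested, described below, 43 were above 0 in batch 2 and 13 below. Marker lists moved with the batch too. Above 0 were 11 of 12 endothelium and 8 of 8 mural markers, and below 0 were 16 of 18 astroglia and 5 of 5 Purkinje markers.

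Which members went with astroglia and which with vessels was described by relating each member's log2(TPM + 1) to the mean log2(TPM + 1) of marker lists. These were the astroglia list, and the endothelium and mural lists together. The oligodendroglia and microglia lists were not related to the members, so the relations do not cover all glia. Among the 20 relations, 5 passed a permutation test within batch at an adjusted p under 0.05. How many of all genes would pass was not computed, so the count cannot be read as particular to the members. The permutations did not hold the genotype, so a genotype difference shared by a member and the markers can enter a relation. Jag2 went with the vascular markers most closely (Pearson r 0.910, Spearman rho 0.946, permutation p 2.8e-04 and 2e-04, adjusted p 0.0056). Jag1 (r 0.763, rho 0.745, permutation p 6.3e-04 and 0.0057, adjusted p 0.0063), Notch1 (r 0.737, rho 0.807, permutation p 0.00684 and 7.2e-04, adjusted p 0.0382) and Hes1 (r 0.661, rho 0.670, permutation p 0.00788 and 0.00981, adjusted p 0.0382) followed. These relations were above 0 in each batch, with r in batch 1 of 0.931 for Jag2, 0.885 for Jag1, 0.771 for Notch1 and 0.798 for Hes1. In batch 2, with 6 libraries, the same r were 0.462, 0.614, 0.648 and 0.323. Without the 2 libraries farthest from the median marker level, WT 1 and Het 3, they were 0.863, 0.636, 0.596 and 0.608.

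As WT 1 to 3 and Het 3 stood apart in these markers, the relations were computed again on the other 10 libraries, an alternative added after seeing the data. The r with vascular markers stayed above 0 at 0.802 for Jag2, 0.596 for Jag1, 0.719 for Notch1 and 0.660 for Hes1, but none of these passed (permutation adjusted p 0.170, 0.140, 0.117 and 0.152). In these 10 libraries 3 relations passed. The libraries were picked by marker levels that enter the relations, so these passes are a description and no separate support. Notch3 went with the vascular markers (r 0.793, rho 0.806, permutation p 0.00554 and 0.00418, adjusted p 0.0369) and also with the astroglia markers (r 0.810, rho 0.891, permutation p 0.00113 and 6.2e-04, adjusted p 0.0203). Hey1 ran against the vascular markers (r -0.926, rho -0.939, permutation p 0.00203 and 0.00692, adjusted p 0.0203). Without the 2 libraries farthest from the median these r were 0.906, 0.911 and -0.821, and within the 6 libraries of batch 2 they were 0.852, 0.943 and -0.783. Batch 1 keeps only 4 of these libraries, too few for a value. Over all 14 libraries the vascular r of Notch3 was 0.636 (permutation adjusted p 0.0803) and that of Hey1 -0.105 (adjusted p 0.956).

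Hes5 was the member that went with the astroglia markers over all 14 libraries (r 0.659, rho 0.710, permutation p 0.00954 and 0.00593, adjusted p 0.0382). Its r was 0.944 within batch 1 and 0.726 within batch 2, and 0.643 without WT 2 and Hom 3, the 2 libraries farthest from the median. In the 10 libraries without WT 1 to 3 and Het 3 it was 0.418 (permutation adjusted p 0.187). With a pseudocount of 0.1 or after quantile normalization the relation did not pass (permutation adjusted p up to 0.0564). WT 1 and WT 2, with the highest astroglia sums of 2356 and 2695 TPM, also had the highest Hes5 levels. Hey1 had the opposite sign (r -0.537, rho -0.556, permutation p 0.0427 and 0.0460) and did not pass (adjusted p 0.107). Hey1 was at 75.2 TPM or more in every library, and the cells it came from were not tested. Notch2 was close to 0 with both lists over all 14 libraries (r -0.0062 and 0.060). Its r with vascular markers differed in sign between the batches, at -0.443 in batch 1 and 0.793 in batch 2. With astroglia markers it was 0.137 and 0.230.

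**Figure D3:**
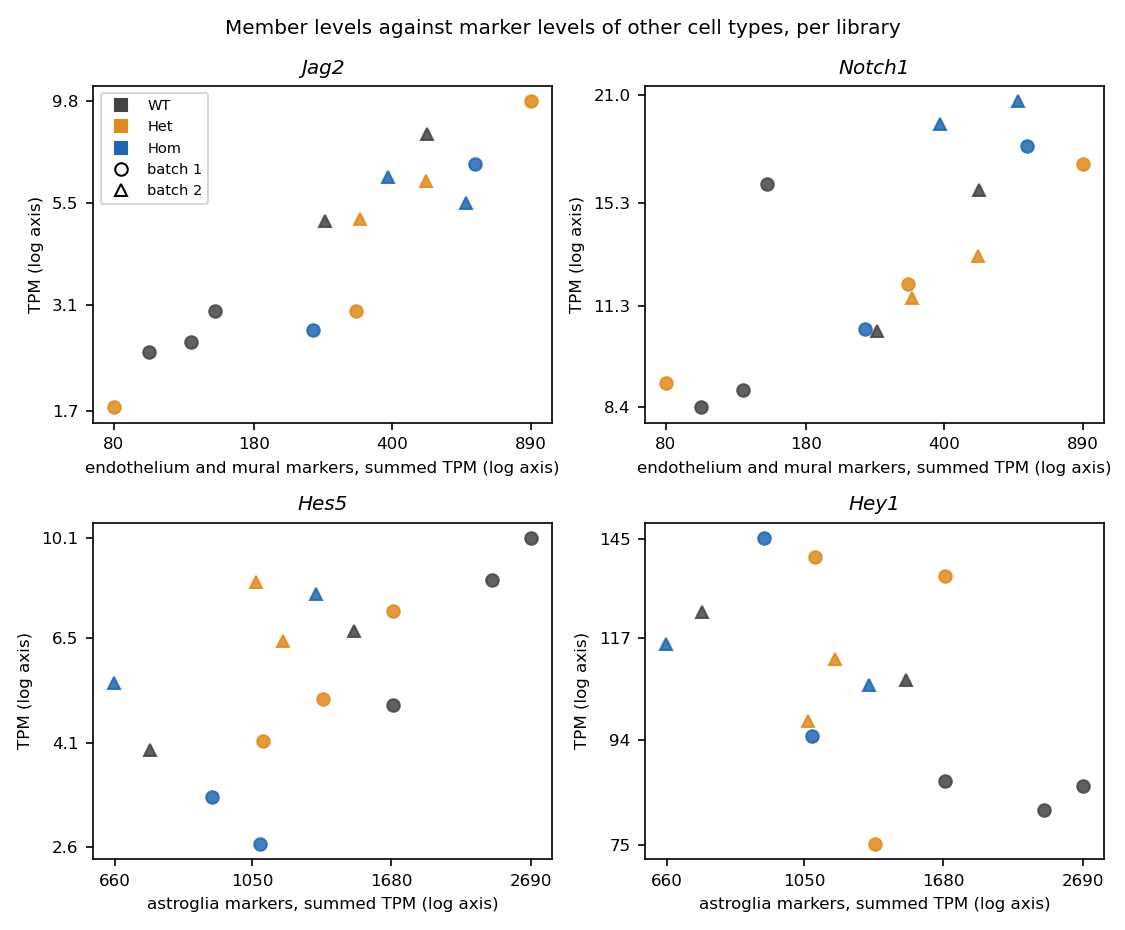
TPM of Jag2 and Notch1 against the summed TPM of the endothelium and mural markers, and of Hes5 and Hey1 against that of the astroglia markers, all on log axes, with 1 point per library, coloured by genotype label and shaped by batch. WT 1 to 3 and Het 3 lie at the left of the upper panels, and WT 1 and 2 at the upper right of the Hes5 panel.

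The genotype changes were also fitted with the marker levels as covariates. With the astroglia level in the model, the Hom change of Hes5 went from -0.49 to 0.064 (SE 0.20, limma adjusted p 0.912), that of Hey1 from 0.25 to 0.073 and that of Notch1 from 0.47 to 0.67 (SE 0.26, limma adjusted p 0.251). With the endothelium and mural level, Notch1 went to 0.20, Jag1 from 0.37 to 0.10 and Jag2 from 0.28 to -0.30, while Hes1 went from -0.18 to -0.64 (SE 0.20, unadjusted p 0.00804, limma adjusted p 0.130). No member was called in Hom under either covariate. The marker levels themselves ran with genotype. In batch 1 the astroglia markers summed to 1688 to 2695 TPM in WT and 915 to 1076 in Hom. The endothelium markers summed to 50.2 to 67.4 TPM in WT and 168 to 510 in Hom. A covariate of this kind also takes out a genotype difference shared with the markers, whatever its origin. Whether the members' RNA came from glia or vessels was not tested.

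**Figure D4:**
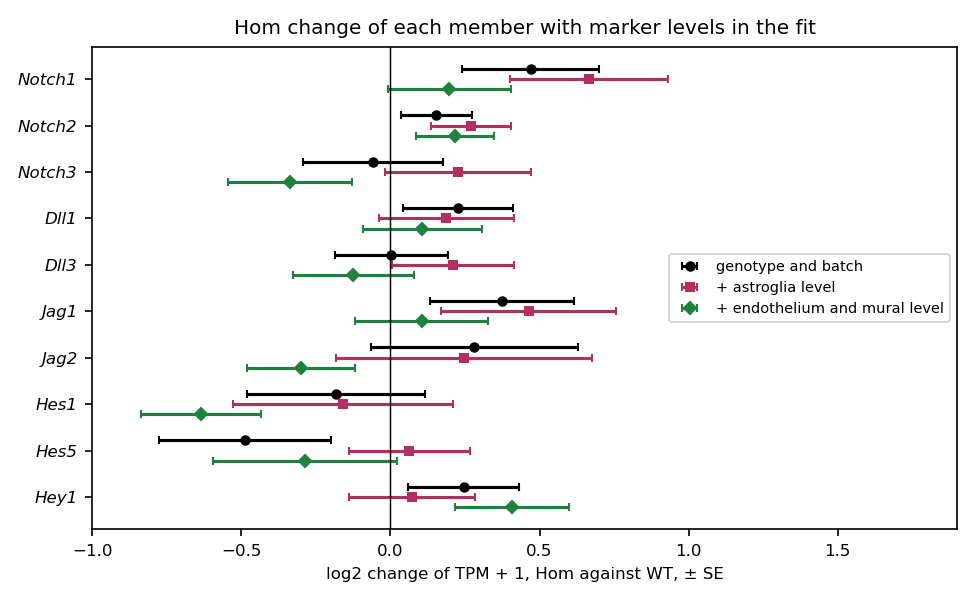
log2 change of TPM + 1 in Hom against WT (x axis) with its SE for each member, in the model with genotype and batch (black) and with the astroglia level (red) or the endothelium and mural level (green) added. Hes5 moves to 0.064 with the astroglia level, and Jag2 and Hes1 move to -0.30 and -0.64 with the endothelium and mural level. The marker levels themselves ran with genotype.

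The genes most like each member over the 14 libraries were found by the Pearson r of log2(TPM + 1) with the batch term removed, among 12199 genes with a mean of at least 5 TPM (12200 for Jag2). Likeness here is over libraries that share depth and cell makeup and is a description only. For Jag2 they were Slc9a3r2 (r 0.964), Mcam (0.960), a cell adhesion molecule known from endothelium, and Afap1l1 (0.958). Mcam was at 3.62 TPM in Het 3 and 31.3 TPM in Het 2, the libraries where Jag2 was lowest and highest. For Notch1 they were Lamb2 (0.929), a laminin chain of basement membranes, Insig2 (0.903) and Man2a2 (0.903), and for Notch3 Nid1 (0.929), a basement membrane nidogen, Rhoc (0.888) and Itih5 (0.886). Jag1 was most like Phldb2 (0.939), Dab2 (0.900) and 2900052L18Rik (0.892), and Hes1 most like Lhfp (0.905), Arl4a (0.898) and Vcl (0.887).

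Hes5 was most like Slc9a3r1 (0.936), Lcat (0.934) and S100b (0.924), an astroglial calcium-binding protein that is also on the astroglia list. S100b was at 32.9 and 36.3 TPM in WT 1 and WT 2 and at 8.57 TPM in WT 5. Hey1 was most like Nkrf (0.905), Isg20l2 (0.904) and Bag4 (0.901), none of which is on a marker list. Notch2 was most like Sgpp2 (0.871), Pik3r4 (0.867) and Cpt2 (0.853), and Dll1 most like Ikzf4 (0.825), Mindy1 (0.824) and Mindy3 (0.812). Dll3 was most like Cdkn1a (0.935), which encodes the cell cycle inhibitor p21, G530011O06Rik (0.882) and Gm15726 (0.820). Het 5 and Hom 4, the libraries highest in Dll3, had 82.4 and 61.1 TPM of Cdkn1a, against 9.58 to 29.3 TPM in the other 12.

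Beyond the 10 members, 59 further genes of the pathway were listed by role, and 56 of them could be tested. In Hom against WT, 3 of the 56 were called, 2 higher and 1 lower, beside 2.68% of all genes, and 10 had an unadjusted p under 0.05, beside 14.9% of all genes. The median change was 0.033 against 0.024 over all genes. In Het against WT 0 were called (0.00577% of all genes), with 5 of the 56 at an unadjusted p under 0.05 (6.08% of all genes).

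Dtx1 encodes Deltex, a ubiquitin ligase that binds the intracellular domain of Notch. It had 29.5, 38.6, 29.7, 50.6 and 44.7 TPM in the numbered WT libraries, 42.2, 50.2, 40.3, 59.3 and 55.2 in the Het libraries, and 48.6, 56.9, 60.6 and 54.3 in the Hom libraries. It rose in Hom by 0.49 on the log2 scale (SE 0.11, limma adjusted p 0.0300), with 3 of the 4 Hom libraries above every WT library. Its Het change was 0.37 (unadjusted p 0.00366, limma adjusted p 0.518). Kat2a encodes an acetyltransferase of the SAGA complex that is recruited with the Notch coactivators, and it rose in Hom by 0.28 (SE 0.069, limma adjusted p 0.0497), from 47.8 ± 6.55 TPM in WT to 59.4 ± 9.19 in Hom (SD).

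Cntn6 encodes a contactin described as a Notch ligand and is a neuronal adhesion molecule. It was the gene that fell, by 0.82 on the log2 scale (SE 0.18, limma adjusted p 0.0274). Its values were 6.16, 5.54, 6.21, 5.04 and 4.91 TPM in the numbered WT libraries, 4.05, 4.67, 3.31, 3.82 and 4.69 in the Het libraries, and 2.17, 4.29, 1.65 and 3.13 in the Hom libraries. Every WT library lay above every Het and every Hom library, and the Het change was -0.37 (unadjusted p 0.0490, limma adjusted p 0.814). These 3 calls were not firm to single libraries. The call was lost without 1 library in 7 of 14 fits for Cntn6 (without any 1 of WT 1 to 5, Hom 1 or Hom 3), in 6 for Dtx1 (WT 1, WT 3, WT 5 or Hom 1 to 3) and in 12 for Kat2a (all but WT 2 and Het 4), with limma adjusted p-values of up to 0.108, 0.102 and 0.122. The directions were the same in all of these fits.

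The most abundant other genes of each role did not pass the test in Hom. Dner, a neuronal transmembrane ligand, was at 89.8 ± 26.3 TPM in WT and 62.5 ± 9.39 in Hom (log2 change -0.52, limma adjusted p 0.0719), and Cntn1, another contactin, at 52.6 ± 8.93 and 49.7 ± 14.5 TPM (adjusted p 0.849). Hes6, a Hes family member that favours neuronal differentiation, was at 103 ± 15.7 and 84.6 ± 10.6 TPM (log2 change -0.29, limma adjusted p 0.221), and Nrarp, a feedback inhibitor, at 5.80 ± 1.19 and 7.14 ± 2.46 TPM (adjusted p 0.679). The glycosyltransferases Poglut1 and Rfng had changes of 0.12 and -0.0018. The gamma-secretase subunit Ncstn and the protease Adam10 had changes of -0.0061 and 0.24, the corepressors Ctbp1 and Ncor1 -0.046 and 0.16, and the turnover genes Dtx3 and Numbl -0.11 and -0.15, with limma adjusted p-values from 0.272 to 0.996 for these 8 genes.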

How the data were processed

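RNA-seq was done on 14 libraries of postnatal day 7 GNPs (TruSeq total RNA kit, single-end reads of 50 bases). The deposited values are gene-level TPM (length-corrected transcript shares scaled to the same total in each library), which the authors made with Bowtie 1.0.0 and RSEM 1.2.15 on the Ensembl mouse transcriptome (mm10) at default settings. TPM keeps no read depth, so the depth of a library is unknown and no counting error was computed. The study's ComBat step was replaced by a batch term. The control columns were matched by number to the libraries labelled WT.

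Values were tested as log2(TPM + 1), which understates changes of low genes, keeping the 17325 genes that reached 1 TPM in 4 or more libraries. limma 3.58.1 in R 4.3.3 (lmFit, eBayes with trend) fitted genotype and batch to all 14 libraries, with two-sided p-values adjusted by Benjamini-Hochberg over all genes tested. The Kruskal-Wallis test on values centred within batch was exact over 50400 arrangements. Relations to marker levels used 100000 two-sided permutations within batch, adjusted over 20 relations. Scripts were tested on simulated data. Members, gene lists and tests were chosen with earlier results of these data known. Genes named are the 10 members, Chd7, the other pathway genes called or the 2 most abundant of each role, the 3 genes most like each member, and defining markers. Positions are from GENCODE on GRCm38, and promoters from RefSeq. Replicate numbers were not used as pairs in the main fits: over 13 same-numbered pairs the correlations of deviations ran from -0.23 to 0.26, with 3 over 0.1. Pairs of unlike number were not examined, so this does not exclude pairing.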

Additional observations from a re-analysis of the deposited data

How the results depend on the processing

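The 10 members were refitted under 14 alternatives beside leaving out each of the 14 libraries. The count of members called was 0 in Hom against WT, Het against WT and Hom against Het in every one of these fits. Of 558 recomputed member changes in Hom or Het against WT, 505 kept their direction, 53 reversed it and 0 were called. Jag2 was not tested under the minimum mean of 5 TPM. The batches fitted alone gave reversed Hom changes of 0.074 for Hes1 in batch 1, and of -0.00091 for Dll3, -0.092 for Jag2, 0.28 for Hes5 and -0.057 for Hey1 in batch 2. In Het they gave 0.16 for Dll1 and 0.18 for Hes1 in batch 1, and -0.065 for Notch1, -0.017 for Notch2, -0.068 for Notch3, -0.16 for Jag2, 0.43 for Hes5 and -0.14 for Hey1 in batch 2. With the astroglia level as a covariate the reversed changes were 0.23 for Notch3 and 0.064 for Hes5 in Hom, and 0.21 for Hes5 in Het. With the endothelium and mural level they were -0.12 for Dll3 and -0.30 for Jag2 in Hom, and -0.11 for Notch1, -0.065 for Notch3, -0.22 for Jag2 and 0.063 for Hes5 in Het. With both levels, an alternative added after seeing the data, they were -0.26 for Jag2 and 0.20 for Hes5 in Hom, and -0.20 for Jag2 and 0.31 for Hes5 in Het. Dll3 in Hom was -0.023 after median-ratio scaling and -0.015 after quantile normalization. Leaving out 1 library, the Hom changes ran from -0.17 to 0.10 for Notch3, from -0.15 to 0.20 for Dll3 and from -0.35 to 0.020 for Hes1. The Het changes ran from -0.053 to 0.24 for Notch1, -0.021 to 0.11 for Notch2, -0.032 to 0.28 for Notch3, -0.16 to 0.043 for Dll1, -0.12 to 0.40 for Jag2, -0.31 to 0.059 for Hes1 and -0.29 to 0.096 for Hes5. The cause of these reversals was not tested.

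The 3 other pathway genes called in Hom became 1 with all genes above 0 TPM in 4 libraries, with no batch term, with Het 3 placed in batch 2 or with the astroglia level. They became 0 with only the 2 genotypes compared and in batch 1 or batch 2 alone, where fewer libraries enter, and 0 to 3 without 1 library. The count of members called between batches, 1 (Dll3), became 0 with Het 3 placed in batch 2, 2 (Dll3 and Hes5) with the astroglia level or both levels, and 1 to 2 without 1 library. With the replicate block, 0 other pathway genes were called in Hom and 0 members between batches, and no member was called in either genotype contrast. The batch change of Dll3 was 0.094 under the block (limma adjusted p 0.930). Numbers 1 and 2 lie wholly in batch 1 and numbers 4 and 5 wholly in batch 2, so under the block the batch change rests on number 3 alone (Hom 3 against WT 3 and Het 3). Whether the number pairs these libraries was not settled. The Kruskal-Wallis count became 1 (Dll3, exact p 0.0468) after quantile normalization. The relations that passed, 5, became 4 with a pseudocount of 0.1 (without Hes5 with astroglia markers), 2 (Jag1 and Jag2) after quantile normalization, 3 in the 10 libraries without WT 1 to 3 and Het 3, and 2 to 6 without 1 library. Jag1 and Jag2 with vascular markers passed without any 1 library, Hes1 in 8, Notch1 in 6 and Hes5 with astroglia markers in 6 of 14. Hes5 lost it without WT 1, WT 2, WT 3, WT 5, Het 1, Het 2, Het 3 or Hom 4 (adjusted p up to 0.149), Notch1 without WT 1, WT 3, WT 5, Het 1, Het 2, Het 3, Hom 2 or Hom 4 (up to 0.0883), and Hes1 without WT 3, Het 1, Het 2, Het 3, Hom 2 or Hom 4 (up to 0.141). Notch3 with vascular markers passed without WT 2 (adjusted p 0.0172), and Dll3 with vascular markers without WT 2, WT 4 or Hom 1 (adjusted p from 0.0384).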
